A study of Arabidopsis thaliana with 6 samples.

Results

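The histone genes of *Arabidopsis thaliana* were examined in anther RNA of *ice1-2*, a T-DNA insertion mutant of the bHLH transcription factor gene *ICE1*, and of Col-0, the wild type. The family was chosen by gene identifier, 47 of the 32833 genes in the data: the H2A, H2B, H3, H4 and linker H1 genes. It was selected on this readout, with the contrast between *ice1-2* and Col-0 already known, so its fold changes and adjusted p are given as a description and not as independent evidence. The study asked which genes *ICE1* controls in anthers around dehiscence, the opening of the anther that releases pollen. RNA was sequenced in 3 libraries labelled *ice1-2* and 3 labelled Col-0, each with the letter A, B or C. All plants were grown at 22 °C under 16 h light and 8 h dark, and anthers of stages 9 to 13 were collected (anther stages in the labels, flower stages in the study's methods). *ice1-2* is a mutation of the whole plant in the Col-0 background, and each library mixes the cells of the anther wall, the tapetum and the pollen.

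Histones pack DNA into nucleosomes, in which DNA winds around a core of H2A, H2B, H3 and H4, while H1 binds the linker DNA between nucleosomes. The replication-dependent histones (canonical H2A and H2B, H3.1, H4) are made mainly in S phase and are laid down behind the replication fork. The variants are laid down in other ways: H3.3 replaces H3 at transcribed genes, H2A.Z flanks transcription starts, H2A.W lies in heterochromatin, H2A.X is phosphorylated at DNA breaks, and CENH3 marks the centromere. In *Arabidopsis* pollen the sperm cells carry their own histones, among them an H3 variant made in male gametes (HTR10, also called MGH3) and the H2B variant HTB8. Unlike those of animals, plant replication-dependent histone messengers are polyadenylated.

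H3.1 and H3.3 are told apart by a few residues, and their genes differ enough in sequence to be counted separately. The 5 H3.1 genes encode 1 protein of 136 residues and the 3 H3.3 genes another, according to RefSeq on TAIR10.1. Counted from 1 at the alanine after the initiator methionine, the H3.3 protein differs from H3.1 by 4 substitutions, A31T, F41Y, S87H and A90L. The pollen gene *HTR14* carries the same 4 and differs from H3.1 at 9 positions in all. The coding stretch from codon 26 to codon 43 shows the first pair of these positions, with codons 31 and 41 in capitals. It is given for the H3.1 genes *HTR1* (AT5G65360) and *HTR2* (AT1G09200), the H3.3 genes *HTR8* (AT5G10980) and *HTR5* (AT4G40040), and *HTR14* (AT1G75600).
HTR1: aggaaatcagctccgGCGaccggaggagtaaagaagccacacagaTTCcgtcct
HTR2: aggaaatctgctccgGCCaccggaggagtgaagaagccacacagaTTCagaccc
HTR8: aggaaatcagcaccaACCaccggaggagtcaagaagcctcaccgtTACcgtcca
HTR5: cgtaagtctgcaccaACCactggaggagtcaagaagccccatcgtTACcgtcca
HTR14: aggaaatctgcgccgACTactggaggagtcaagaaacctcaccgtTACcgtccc
The capitals read alanine and phenylalanine in both H3.1 genes, and threonine and tyrosine in the other 3. Over the whole coding sequence, H3.1 genes were 80.3% to 89.5% identical to each other and H3.3 genes 78.6% to 88.8%. The 8 H4 genes also encode 1 protein, of 103 residues, from coding sequences that were 78.8% to 98.1% identical. Stretches of 100 bases, the length of a read, were shared within 2 pairs of H4 genes: they made up 12.1% of AT3G46320 and 11.1% of AT3G45930, and 5.0% of AT1G07820 and 6.1% of AT1G07660. The values of those 4 genes may therefore hold reads of their partner or miss reads of their own. No other member shared such a stretch with another histone gene, apart from *HTA12* and *HTB10*, which overlap.

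Many plant histone promoters carry a short element known as the octamer. The 250 bases before the annotated start of each gene were searched on both strands for the octamer CGCGGATC and for ACGTCA, called the hexamer, which do not overlap each other. The octamer stood before 10 of the 47 histone genes (21.3%), against 37 of 27443 promoters of protein-coding genes (0.135%). The windows below show it, in capitals, before the 5 genes that hold it among the 7 called higher in *ice1-2* (a call that 1.54% of all genes tested received, defined with the values), and before the H3.3 gene *HTR5*. They read 5′ to 3′ along the strand of the gene, in the build TAIR10.1 of RefSeq.
HTR1, chr5:26120684-26120723, minus strand: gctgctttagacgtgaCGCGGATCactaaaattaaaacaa
HTR2, chr1:2972401-2972440, minus strand: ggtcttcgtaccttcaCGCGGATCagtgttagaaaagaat
HTR2, chr1:2972335-2972369, minus strand: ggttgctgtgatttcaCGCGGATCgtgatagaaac
HTR9, chr5:3271054-3271093, minus strand: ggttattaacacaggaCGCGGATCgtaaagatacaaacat
HTA6, chr5:24116313-24116352, minus strand: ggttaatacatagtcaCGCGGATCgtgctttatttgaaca
HTA13, chr3:7229306-7229345, plus strand: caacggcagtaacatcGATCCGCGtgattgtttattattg
HTR5, chr4:18558946-18558978, minus strand: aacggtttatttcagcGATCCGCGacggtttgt
In *HTA13* and *HTR5* the element lies on the opposite strand and so reads as its reverse complement. The other octamers were before *HTA10* (on both strands, 1 each), *H1.1* and the H4 genes AT5G59690 and AT1G07660. None was found before the 10 replication-dependent H2B genes. The hexamer stood before 12 histone genes (25.5%), against 7.689% of all promoters, and 8 of those 12 were H2B genes. A match of letters is a description of the sequence and not a bound site.

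**Figure D1:**
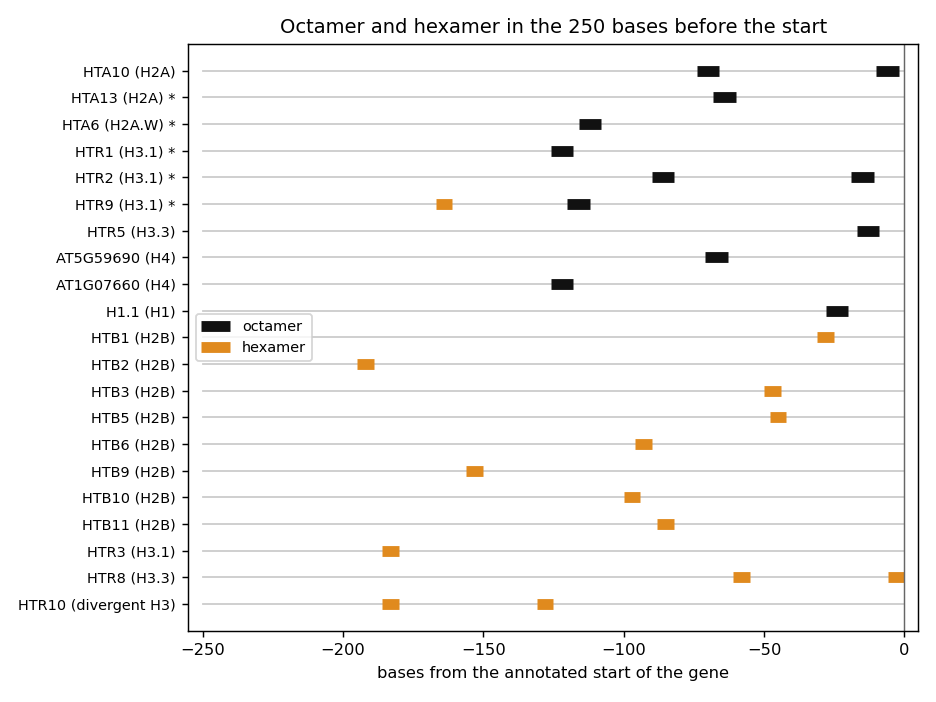
Positions of the octamer (black) and the hexamer (orange) in the 250 bases before the start of each histone gene that holds either; the x axis gives bases from the annotated start, and an asterisk marks genes called higher in *ice1-2*. The octamer lay before 10 genes, 5 of them with an asterisk, and the hexamer before 8 H2B genes.

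The values are FPKM, fragment counts scaled by transcript length and by library depth, so levels of different genes can be set side by side. Sequencing depth, estimated from the spacing of the lowest FPKM values, was about 5.9 to 19.5 megafragments in the *ice1-2* libraries (lowest in *ice1-2* A) and 22.4 to 26.9 megafragments in the Col-0 libraries. Only 35.3% to 61.7% of the low values lay within 0.1 of a whole number of fragments, so the estimate is rough. *ICE1* (AT3G26744), the mutated gene, had 12.9, 15.4 and 21.5 FPKM in *ice1-2* A, B and C, against 12.7, 9.25 and 14.0 FPKM in Col-0 A, B and C. *ICE1* was not called (adjusted p = 0.323 from limma). A value per gene does not show whether a transcript runs past an insertion, so the label cannot be checked by it. The test, with limma on log2(FPKM + 0.5), covered the 18858 genes that reached 1 FPKM in 3 or more libraries. That scale understates the change of low genes. Called genes had both a log2 fold change over 1, up or down, and a p under 0.05 after Benjamini-Hochberg adjustment (adjusted p). The sources do not tell whether separate plants were used for the libraries, and p-values therefore cover only the spread among these libraries.

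Most histone genes were higher in the libraries labelled *ice1-2*, and the replication-dependent ones had a larger median change than the variants. Of the 47 genes, 44 passed the filter on low values, and 7 of these were called higher: the H3.1 genes *HTR1*, *HTR2* and *HTR9*, the H2A genes *HTA2* and *HTA13*, the H2A.W gene *HTA6* and the H4 gene AT5G59970. Over all genes tested, 1.54% were called higher. None of the 44 was called lower by limma, against 0.233% of all genes, and 2 had an unadjusted p under 0.05 in that direction, against 5.26% of all genes. In the other direction 29 had an unadjusted p under 0.05, against 16.2% of all genes. In 29 genes every *ice1-2* library lay above every Col-0 library (19.8% of all genes), in 3 every *ice1-2* library lay below (7.39% of all genes), and in 12 the libraries overlapped. Because the family was chosen with this contrast known, nothing is read from these counts.

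The calls depended on single libraries. The medians kept their sign, but the family was chosen with this contrast known, so that sign is no independent support. The count of histone genes called higher was 0 when *ice1-2* B, *ice1-2* C, Col-0 B or Col-0 C was left out, 7 when *ice1-2* A was left out and 11 when Col-0 A was left out. Over all genes, calls in either direction then numbered 25, 15, 16, 23, 280 and 628, in the same order. The median log2 fold change of the 26 replication-dependent genes that passed the filter was 0.95 and lay between 0.82 and 1.08 when any library was left out. For the 18 variant and linker genes that passed, it was 0.36, between 0.28 and 0.47 when any library was left out. The median of all genes tested was 0.15. Median-ratio scaling moved that median to -0.01, and the medians became 0.78 for the replication-dependent genes and 0.21 for the variant and linker genes. All 26 replication-dependent genes had a positive log2 fold change, from 0.23 to 1.50, and the exception when a library was left out was *HTB7*, at -0.04 without *ice1-2* B. Of the 18 others, 12 were positive and 6 negative.

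**Figure D2:**
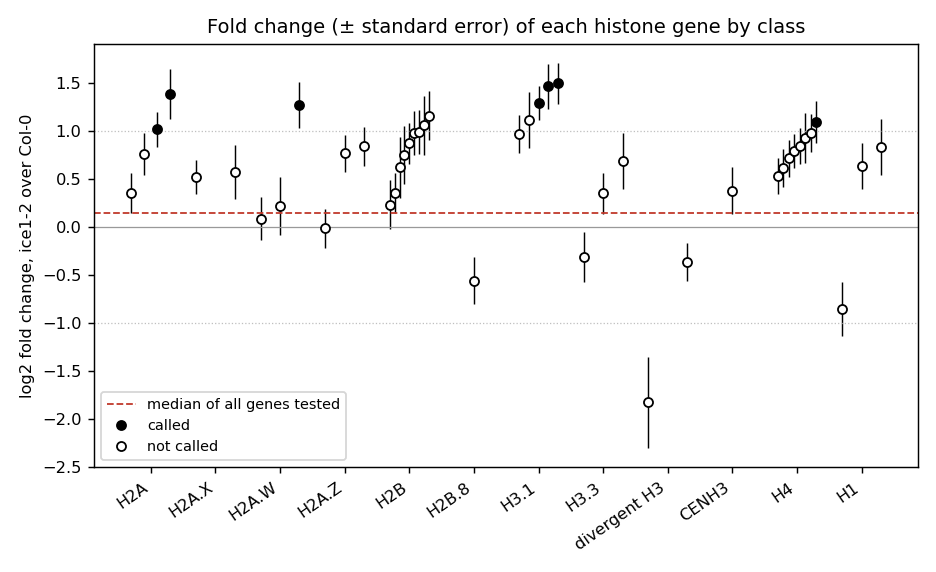
Log2 fold change of *ice1-2* over Col-0 for the 44 histone genes that passed the filter, by class, with the standard error from limma as the bar; filled points were called, and the dashed line is the median of all genes tested (0.15). All replication-dependent genes lie above 0, while *HTB8*, *HTR10*, *HTR14*, *HTR4*, *H1.3* and, at -0.01, *HTA9* lie below it.

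The H3.1 genes encode the H3 that the chaperone CAF-1 deposits during replication, and they showed the largest median change of the classes with at least 3 measured genes, 1.3. *HTR1* had 55.0, 69.1 and 61.7 FPKM in *ice1-2* A, B and C, against 27.6, 24.5 and 22.6 FPKM in Col-0 A, B and C. The *ice1-2* libraries of *HTR1* were all above the Col-0 libraries, and *HTR1* rose by a log2 fold change of 1.3 (standard error 0.18, adjusted p = 0.025 from limma). *HTR2* had 48.1, 66.6 and 45.4 FPKM in *ice1-2* A, B and C, against 24.0, 18.2 and 15.1 FPKM in Col-0 A, B and C. The groups did not overlap in *HTR2* either (log2 fold change 1.47, standard error 0.23, adjusted p = 0.0322 from limma). *HTR9* (AT5G10400) had 31.4, 51.6 and 41.03 FPKM in *ice1-2* A, B and C, against 14.1, 14.9 and 13.1 FPKM in Col-0 A, B and C. Its log2 fold change, 1.50, was the largest of the family (standard error 0.21, adjusted p = 0.0261 from limma). *HTR13* (AT5G10390), which lies 577 bases from *HTR9* on the same strand, was at a lower level, 8.39, 12.5 and 8.24 FPKM in *ice1-2* A, B and C and 4.29, 6.04 and 2.66 FPKM in Col-0 A, B and C. Its groups did not overlap, but it was not called (log2 fold change 1.12, adjusted p = 0.0839 from limma). *HTR3* (AT3G27360) lay just outside both limits (log2 fold change 0.97, adjusted p = 0.0501 from limma). As 39.4% of its length overlaps AT3G27380 on the same strand, its value may hold reads of that gene or miss reads of its own. Summed over the 5 genes, H3.1 reached 158, 219 and 177 FPKM in *ice1-2* A, B and C, against 80.7, 72.4 and 61.2 FPKM in Col-0 A, B and C, a ratio of means of 2.58.

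The 8 H4 genes, whose protein pairs with every H3, were all higher in *ice1-2*, and 1 was called, against 1.54% of all genes tested called higher. In all 8 the *ice1-2* libraries lay above the Col-0 libraries (19.8% of all genes), with log2 fold changes from 0.53 to 1.09 and a median of 0.82. AT5G59690, the H4 gene with the highest mean FPKM, had 74.7, 95.1 and 82.0 FPKM in *ice1-2* A, B and C, against 50.8, 48.4 and 40.0 FPKM in Col-0 A, B and C. It missed both limits (log2 fold change 0.85, standard error 0.19, adjusted p = 0.0557 from limma). AT5G59970 had 21.2, 35.1 and 26.1 FPKM in *ice1-2* A, B and C, against 13.6, 12.8 and 10.9 FPKM in Col-0 A, B and C. It was the called H4 gene, a rise of 1.09 on the log2 scale (standard error 0.22, adjusted p = 0.0485 from limma). AT3G46320 passed the limit on p but not on the fold (log2 fold change 0.98, adjusted p = 0.0493 from limma). All 8 H4 genes summed to 307, 420 and 363 FPKM in *ice1-2* A, B and C, against 229, 208 and 191 FPKM in Col-0 A, B and C.

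All 4 canonical H2A genes had positive log2 fold changes, from 0.36 to 1.38. The pair of lower level, 2 of the 4, was called, against 1.54% of all genes tested called higher. *HTA1* (AT5G54640), known from work on *Agrobacterium* transformation and the canonical H2A gene with the highest mean FPKM, had 58.7, 75.9 and 55.8 FPKM in *ice1-2* A, B and C, against 60.3, 45.8 and 42.5 FPKM in Col-0 A, B and C. Its groups overlapped (log2 fold change 0.36, standard error 0.21, adjusted p = 0.358 from limma). *HTA2* (AT4G27230) had 36.3, 48.3 and 42.3 FPKM in *ice1-2* A, B and C, against 20.3, 18.6 and 22.8 FPKM in Col-0 A, B and C. *HTA2* rose just past the limit on the fold, by 1.02 on the log2 scale (standard error 0.18, adjusted p = 0.039 from limma). *HTA13* (AT3G20670) had 18.01, 32.5 and 27.9 FPKM in *ice1-2* A, B and C, against 11.6, 9.72 and 7.40 FPKM in Col-0 A, B and C. The groups of *HTA13* were apart and its log2 fold change was 1.38 (standard error 0.26, adjusted p = 0.0438 from limma). *HTA10* (AT1G51060), with an octamer on each strand, was also higher in every *ice1-2* library but not called (log2 fold change 0.76, adjusted p = 0.105 from limma).

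H2B, the partner of H2A in the nucleosome, had the most genes of the replication-dependent classes and no call. Of the 10 replication-dependent H2B genes, 9 passed the filter, and their log2 fold changes ran from 0.23 to 1.16 with a median of 0.87. In 5 of the 9 every *ice1-2* library was above every Col-0 library, as in 19.8% of all genes. *HTB4* (AT5G59910), the H2B gene with the highest mean FPKM, had 89.1, 131 and 126 FPKM in *ice1-2* A, B and C, against 67.0, 47.2 and 58.7 FPKM in Col-0 A, B and C. It stood just under the fold limit and over the limit on p (log2 fold change 0.99, standard error 0.22, adjusted p = 0.0605 from limma). *HTB1* (AT1G07790) had 23.1, 30.6 and 20.6 FPKM in *ice1-2* A, B and C, against 15.3, 8.56 and 9.27 FPKM in Col-0 A, B and C. Its log2 fold change was the largest of the H2B genes, 1.16 (standard error 0.26, adjusted p = 0.0573 from limma). *HTB10* (AT5G02570), annotated from mature pollen, failed the filter at 0, 0.349 and 0 FPKM in *ice1-2* A, B and C and 0.562, 0.424 and 0 FPKM in Col-0 A, B and C. *HTB10* lies wholly inside *HTA12* on the opposite strand, and without a stated use of strand in the counting their reads cannot be told apart. In *HTB9* (AT3G45980) 37.3% of the gene overlaps others on the opposite strand, with the same limit.

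Among the replication-dependent genes, log2 fold changes were positive with and without the octamer shown above. The 7 that hold it had log2 fold changes from 0.53 to 1.50 with a median of 1.3, and 4 were called. The 19 measured genes without it ran from 0.23 to 1.16 with a median of 0.93, and 2 were called. Among all genes tested, 1.54% were called higher. The ranges with and without the octamer overlap. The medians also differ in class, as 3 of the 7 are H3.1 genes and no H2B gene holds it. Within H4, AT1G07660 and AT5G59690 hold it, with 0.53, the lowest of the class, and 0.85, against 0.61 to 1.09 for the H4 genes without it. Within H2A, *HTA13* and *HTA10* hold it, with 1.38 and 0.76, against 1.02 for *HTA2* and 0.36 for *HTA1*. Within H3.1, *HTR1*, *HTR2* and *HTR9* hold it, with 1.3, 1.47 and 1.50, against 0.97 for *HTR3* and 1.12 for *HTR13*. A role of the element was not tested. In the whole family, all 10 genes with the octamer had every *ice1-2* library above every Col-0 library, against 19 of the 34 measured genes without it and 19.8% of all genes tested. The family was chosen with this contrast known, so these counts are a description only.

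**Figure D3:**
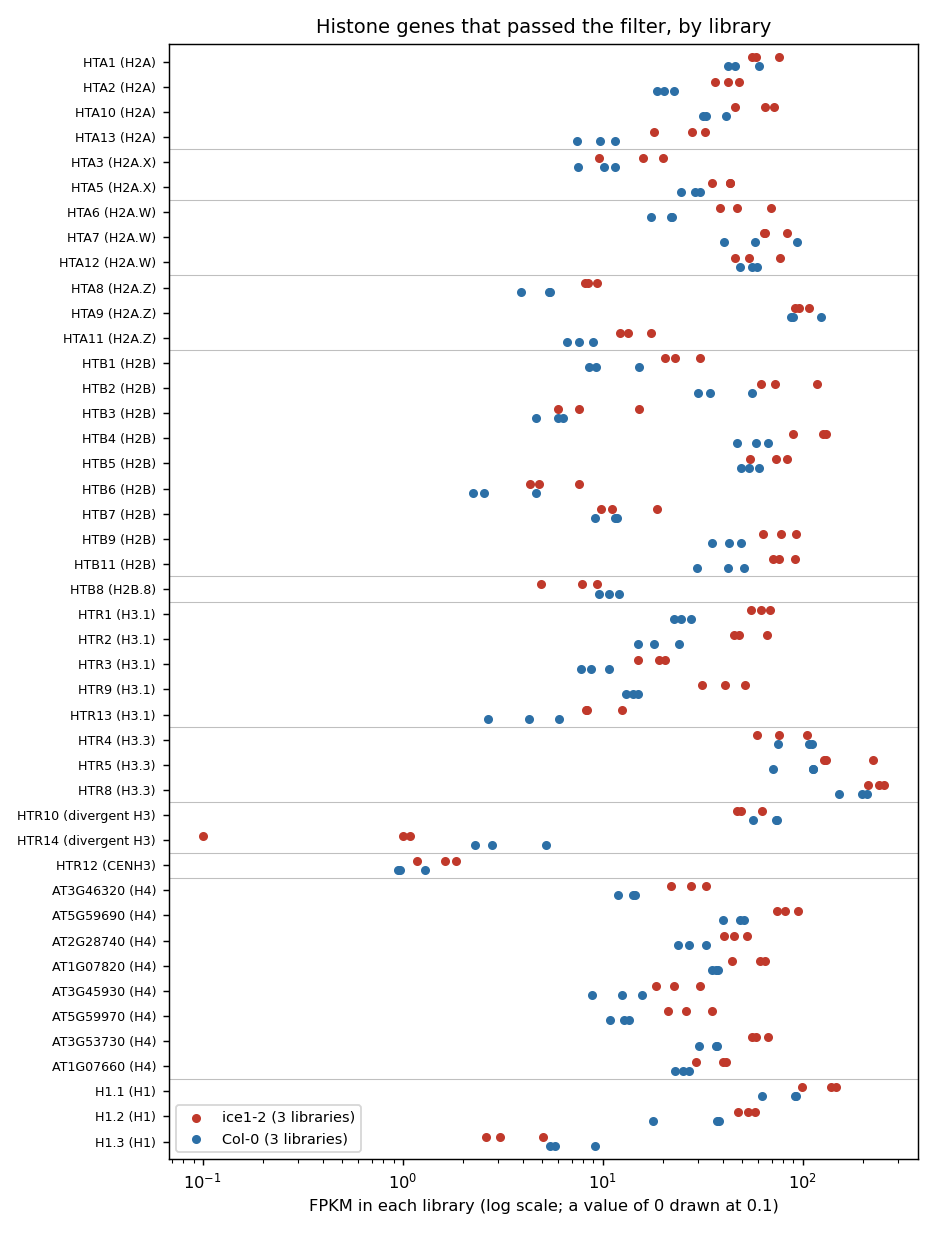
FPKM of the 44 histone genes that passed the filter in each *ice1-2* library (red) and each Col-0 library (blue), on a log axis, with a value of 0 drawn at 0.1; lines part the classes. In all 5 H3.1 genes and all 8 H4 genes the red points lie to the right of the blue ones, and in *HTB8*, *HTR14* and *H1.3* to the left.

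The H2A variants were mixed, with 1 call among the 8 genes that passed, against 1.54% of all genes tested called higher. *HTA6* (AT5G59870), a gene of the heterochromatic H2A.W and the only H2A variant here with an octamer in its promoter, had 38.5, 69.7 and 46.8 FPKM in *ice1-2* A, B and C, against 22.3, 21.9 and 17.5 FPKM in Col-0 A, B and C. Its groups did not overlap and *HTA6* rose by 1.27 on the log2 scale (standard error 0.24, adjusted p = 0.0443 from limma). *HTA7* (AT5G27670), the H2A.W gene with the highest mean FPKM, had 64.9, 64.0 and 83.8 FPKM in *ice1-2* A, B and C, against 93.7, 40.4 and 58.0 FPKM in Col-0 A, B and C. Col-0 A held the highest value of *HTA7*, the groups overlapped (log2 fold change 0.22, standard error 0.30, adjusted p = 0.707 from limma), and the sign turned to -0.07 without Col-0 B. The third, *HTA12* (AT5G02560), had a log2 fold change of 0.09, which became -0.09 under median-ratio scaling, and 26.2% of its length overlaps *HTB10*. The ratio of *HTA6* to *HTA7* within a library was 0.594, 1.09 and 0.559 in *ice1-2* A, B and C, against 0.238, 0.543 and 0.302 in the Col-0 libraries A, B and C, so the highest Col-0 value lay just under the lowest *ice1-2* value.

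H2A.Z, which is exchanged into nucleosomes by the SWR1 complex, was carried mostly by *HTA9* (AT1G52740). *HTA9* had 91.1, 96.3 and 108 FPKM in *ice1-2* A, B and C, against 89.3, 87.7 and 123 FPKM in Col-0 A, B and C. Its groups overlapped, with a log2 fold change of -0.01 (standard error 0.20, adjusted p = 0.982 from limma), and this sign turned under several alternatives. *HTA11* (AT3G54560) had 12.2, 17.4 and 13.3 FPKM in *ice1-2* A, B and C, against 7.58, 8.98 and 6.61 FPKM in Col-0 A, B and C. The groups of *HTA11* were apart and it was not called (log2 fold change 0.84, standard error 0.20, adjusted p = 0.0709 from limma). *HTA8* (AT2G38810) was likewise higher in every *ice1-2* library (log2 fold change 0.77, adjusted p = 0.0761 from limma). *HTA9* made up 81.8%, 78.3% and 83.0% of summed H2A.Z FPKM in *ice1-2* A, B and C, against 87.3%, 85.9% and 92.1% in the Col-0 libraries A, B and C. *HTA4* (AT4G13570), which encodes a shorter H2A.Z of 118 residues, failed the filter and was listed at 0 in all libraries but *ice1-2* B (0.0184 FPKM) and *ice1-2* C (0.166 FPKM).

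The H2A.X genes encode the H2A with the SQEF end that is phosphorylated at breaks, an ending that both proteins have and no other member has. *HTA5* (AT1G08880) had 35.3, 43.6 and 43.2 FPKM in *ice1-2* A, B and C, against 29.0, 24.6 and 30.9 FPKM in Col-0 A, B and C. The *ice1-2* libraries were all higher, without a call (log2 fold change 0.52, standard error 0.18, adjusted p = 0.147 from limma). *HTA3* (AT1G54690) overlapped between the groups at 9.597, 20.0 and 16.0 FPKM in *ice1-2* A, B and C and 11.6, 7.53 and 10.2 FPKM in Col-0 A, B and C, with a log2 fold change of 0.57 (standard error 0.28, adjusted p = 0.284 from limma). Other genes overlap 51.3% of *HTA3* on the opposite strand, so its value may include their reads or miss reads of its own.

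H3.3, which the chaperone HIRA can deposit outside replication, had the highest summed FPKM of the H3 classes in every library and no call. *HTR8* held the highest mean FPKM of all 47 genes, with 213, 241 and 256 FPKM in *ice1-2* A, B and C, against 198, 153 and 209 FPKM in Col-0 A, B and C. The groups of *HTR8* did not overlap, though *ice1-2* A and Col-0 C were close (log2 fold change 0.35, standard error 0.21, adjusted p = 0.367 from limma). *HTR5* had 225, 128 and 132 FPKM in *ice1-2* A, B and C, against 113, 71.0 and 112 FPKM in Col-0 A, B and C. *ice1-2* A stood above the other 5 libraries in *HTR5*, and the gene was not called (log2 fold change 0.69, standard error 0.29, adjusted p = 0.218 from limma). *HTR4* (AT4G40030), which encodes the same protein, had 105, 59.4 and 76.1 FPKM in *ice1-2* A, B and C, against 108, 75.8 and 112 FPKM in Col-0 A, B and C. Its groups overlapped and its log2 fold change was negative, -0.31 (standard error 0.26, adjusted p = 0.520 from limma).

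*HTR4* and *HTR5* are neighbours on chromosome 4, 42 bases apart on the same strand with *HTR5* upstream, and they were in different proportion in the 2 genotypes. The ratio of *HTR4* to *HTR5* within a library was 0.467, 0.464 and 0.578 in *ice1-2* A, B and C, against 0.952, 1.07 and 0.995 in the Col-0 libraries A, B and C. It averaged 0.503 ± 0.0653 in *ice1-2* and 1.00 ± 0.0584 in Col-0 (SD, n = 3 each). This pair was chosen once its values were known, and the assignment of reads between genes so close was not tested.

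The histone genes of the male germ line, *HTR10* and *HTB8*, and the pollen gene *HTR14* had negative log2 fold changes, and none of them was called. *HTR10* (AT1G19890, MGH3), the H3 of male gametes, had 49.4, 62.6 and 46.8 FPKM in *ice1-2* A, B and C, against 74.3, 73.5 and 56.8 FPKM in Col-0 A, B and C. The groups overlapped in *HTR10*, at *ice1-2* B and Col-0 C (log2 fold change -0.36, standard error 0.20, adjusted p = 0.327 from limma). *HTB8* (AT1G08170), the H2B of sperm, had 7.86, 9.42 and 4.92 FPKM in *ice1-2* A, B and C, against 10.8, 12.04 and 9.63 FPKM in Col-0 A, B and C. Every *ice1-2* library of *HTB8* was below every Col-0 library (log2 fold change -0.56, standard error 0.24, adjusted p = 0.234 from limma). *HTR14*, an H3 annotated from the pollen tube, was listed at 0, 1.09 and 1.01 FPKM in *ice1-2* A, B and C, against 2.81, 2.30 and 5.22 FPKM in Col-0 A, B and C. Its log2 fold change, -1.82, was the lowest of the family, and it was not called (standard error 0.48, adjusted p = 0.0825 from limma). At the rough depths given, *HTR14* rested on about 0, 13 and 9 fragments in *ice1-2* A, B and C, against about 43, 39 and 73 fragments in Col-0 A, B and C. It passed the limits only with *ice1-2* B and Col-0 A left out together (log2 fold change -2.21, adjusted p = 0.00624 from limma), an alternative chosen after seeing the data. *HTR6* (AT1G13370), with 9 substitutions from H3.1, failed the filter at 0.172 to 0.549 FPKM in *ice1-2* and 0.145 to 0.259 FPKM in Col-0.

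Markers of the male germ line were also lower in sum in every *ice1-2* library. None was called by limma, and 4 of the 6 were lower at an unadjusted p under 0.05, against 5.26% of all genes. The 6 sperm and generative cell markers, among them the MYB factor *DUO1* and the gamete fusion gene *HAP2*, summed to 41.2 to 49.6 FPKM in *ice1-2* and 60.7 to 73.5 FPKM in Col-0, with none listed at 0 in any library. *DUO1* itself had a log2 fold change of -0.16, with overlapping groups. *GEX1* made up most of the sum, at a mean of 29.8 FPKM in *ice1-2* and 39.9 FPKM in Col-0. Its groups overlapped as well (log2 fold change -0.40), and ratios to the sum are largely ratios to *GEX1*. The ratio of *HTR10* to that sum was 1.201, 1.26 and 1.04 in *ice1-2* A, B and C, against 1.22, 1.00 and 0.902 in the Col-0 libraries A, B and C. These ratios overlapped between the genotypes, and the part of the germ-line cells in the levels of these histone genes was not tested further. For *HTB8* the ratio averaged 0.163 ± 0.0470 in *ice1-2* and 0.165 ± 0.0121 in Col-0 (SD, n = 3 each). For *HTR14*, annotated from the pollen tube, the ratio lay below the Col-0 range in every *ice1-2* library, 0, 0.0219 and 0.0223 in *ice1-2* A, B and C, against 0.0463, 0.0313 and 0.083 in the Col-0 libraries A, B and C. In whole anthers, fewer cells of a type and less RNA per cell cannot be told apart.

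*HTR12* (AT1G01370) encodes CENH3, the H3 on which the kinetochore is built. It was near the filter in every library, 1.17, 1.63 and 1.84 FPKM in *ice1-2* A, B and C and 0.967, 1.29 and 0.951 FPKM in Col-0 A, B and C. Its groups overlapped, and the log2 fold change was 0.38 (standard error 0.24, adjusted p = 0.405 from limma).

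The linker histones split by type. *H1.1* (AT1G06760), the main H1 here, had 99.2, 139 and 148 FPKM in *ice1-2* A, B and C, against 92.2, 63.0 and 91.9 FPKM in Col-0 A, B and C. It was higher in every *ice1-2* library but not called (log2 fold change 0.64, standard error 0.24, adjusted p = 0.173 from limma), and 38.4% of it overlaps genes on the opposite strand. *H1.2* (AT2G30620), the closely related somatic H1, was also higher in every *ice1-2* library (log2 fold change 0.83, adjusted p = 0.156 from limma). *H1.3* (AT2G18050), a shorter H1 of 167 residues known in *Arabidopsis* for its induction by drought and its presence in guard cells, had 3.07, 2.60 and 5.01 FPKM in *ice1-2* A, B and C, against 5.76, 5.44 and 9.12 FPKM in Col-0 A, B and C. All *ice1-2* libraries of *H1.3* were below the Col-0 libraries, again without a call (log2 fold change -0.85, standard error 0.28, adjusted p = 0.138 from limma). The ratio of *H1.3* to the sum of *H1.1* and *H1.2* was 0.0209, 0.0132 and 0.025 in *ice1-2* A, B and C, against 0.0446, 0.0673 and 0.0699 in the Col-0 libraries A, B and C. The 5 guard cell markers did not move together. They summed to 21.1 to 33.6 FPKM in *ice1-2* and 38.9 to 58.2 FPKM in Col-0, and most of that difference came from the myrosinase gene *TGG1*, at 8.30, 12.3 and 16.4 FPKM in *ice1-2* A, B and C, against 38.7, 39.1 and 33.6 FPKM in Col-0 A, B and C, the 1 of them that was called lower (log2 fold change -1.60, adjusted p = 0.0311 from limma). *FAMA* and *SLAC1*, both too low for the filter and listed at 0 in *ice1-2* A, were also below Col-0 in every *ice1-2* library. *MYB60* had a log2 fold change of -0.04, and the potassium channel gene *KAT1* had one of 1.31 with overlapping groups (adjusted p = 0.246 from limma), so that the median of the 3 measured markers was -0.04. The part of guard cells in the level of *H1.3* was not tested.

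Within a library, ratios do not depend on the scaling between libraries, so the make-up of the histone pool was set out as shares. All histone genes summed to 2107, 2548 and 2266 FPKM in *ice1-2* A, B and C, against 1714, 1352 and 1553 FPKM in Col-0 A, B and C. The replication-dependent genes took 49.8%, 56.8% and 51.6% of this in *ice1-2* A, B and C, against 44.1%, 46.0% and 39.2% in the Col-0 libraries A, B and C. H3.1 took 7.96% ± 0.565 in *ice1-2* and 4.67% ± 0.709 in Col-0 (SD, n = 3 each), and H2B 20.8% ± 1.80 in *ice1-2* and 17.3% ± 1.02 in Col-0 (SD, n = 3 each), without overlap in either class. H2A.Z took 5.28% ± 0.442 in *ice1-2* and 7.38% ± 1.33 in Col-0, and the divergent H3 genes 2.34% ± 0.191 in *ice1-2* and 4.71% ± 0.826 in Col-0 (SD, n = 3 each), below the Col-0 range in every *ice1-2* library. A share also falls when the total rises, and the total was higher in *ice1-2*. Summed H2A.Z FPKM overlapped between the genotypes, with means of 121 in *ice1-2* and 113 in Col-0. The sums of the divergent H3 genes overlapped too, with means of 54.0 and 71.8 FPKM. The shares of canonical H2A, H2A.W, H2A.X, H3.3, CENH3, H4 and H1 overlapped between the genotypes.

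**Figure D4:**
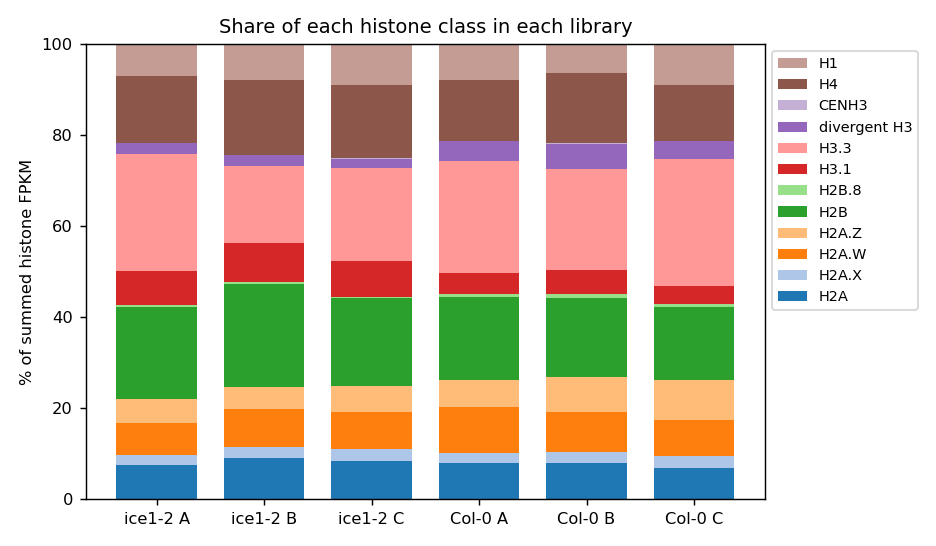
Share of each histone class in the summed histone FPKM of each library, in percent, with the *ice1-2* libraries on the left and the Col-0 libraries on the right. The H3.1 band is 7.96% on average in *ice1-2* and 4.67% in Col-0, and the band of the divergent H3 genes is 2.34% in *ice1-2* and 4.71% in Col-0. The total was higher in *ice1-2*, and the summed FPKM of the divergent H3 genes overlapped between the genotypes.

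Summed FPKM of the H3.1 genes and of the H3.3 genes stood in different proportion in the libraries of the 2 genotypes. The family was chosen with this contrast known, so this is a description of RNA levels only. The ratio of summed H3.1 to summed H3.3 was 0.291, 0.511 and 0.381 in *ice1-2* A, B and C, against 0.192, 0.242 and 0.141 in the Col-0 libraries A, B and C. On the log2 scale the means differed by 1.03, and by 0.83 to 1.24 when any library was left out, while the standard deviation within a genotype was 0.40. *ice1-2* A and Col-0 B, the closest libraries, were 0.291 and 0.242. The ratio of summed H3.1 to summed H4, both replication-dependent, was tighter, 0.514, 0.521 and 0.487 in *ice1-2* A, B and C, against 0.352, 0.348 and 0.321 in the Col-0 libraries A, B and C. With 3 libraries a side no exact permutation test can go below 0.10, and none was run.

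**Figure D5:**
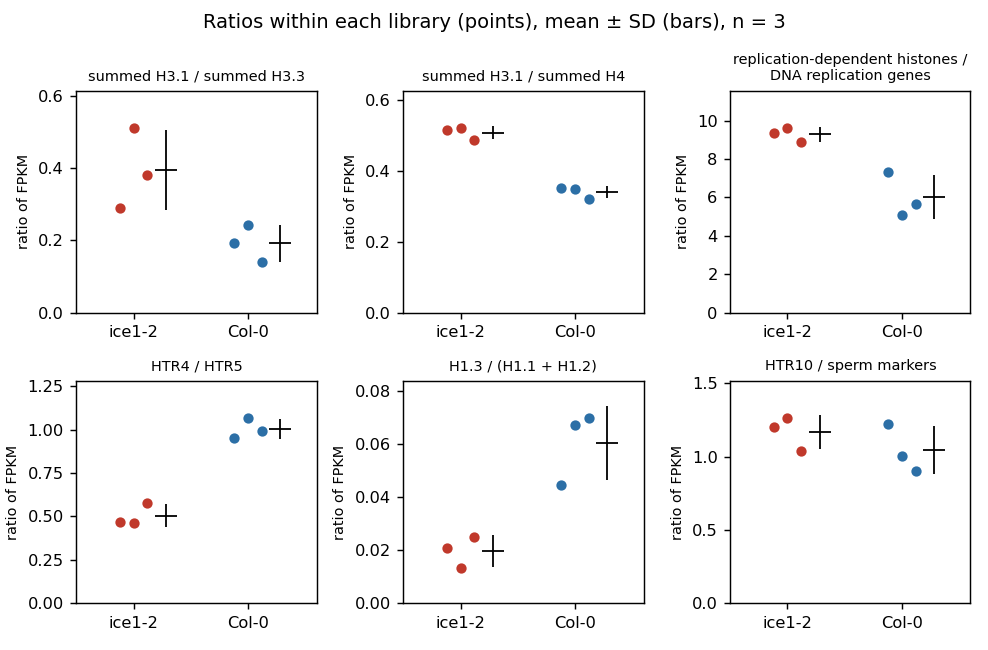
Ratios of FPKM within each library for *ice1-2* (red, left) and Col-0 (blue, right), with the mean and SD of 3 libraries as black bars. The points of *ice1-2* and Col-0 are apart in 5 panels, and overlap for *HTR10* over the sperm markers, 1.17 ± 0.116 in *ice1-2* and 1.04 ± 0.165 in Col-0.

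Genes that act with histones in S phase were listed beside them. Of 20 DNA replication genes, 18 passed the filter and none was called by limma; 4 had an unadjusted p under 0.05, all higher, against 16.2% of all genes in that direction, and the median log2 fold change was 0.18, close to the 0.15 of all genes. *PCNA1* (AT1G07370), the sliding clamp, had 3.12, 6.80 and 5.02 FPKM in *ice1-2* A, B and C, against 2.14, 2.91 and 2.01 FPKM in Col-0 A, B and C (log2 fold change 0.90, adjusted p = 0.124 from limma). *RNR1*, a ribonucleotide reductase subunit, had a log2 fold change of 0.57 (adjusted p = 0.144 from limma), and *PCNA2* had 0.67 (adjusted p = 0.176 from limma). The summed FPKM of replication-dependent histone genes over that of DNA replication genes was 9.33, 9.62 and 8.88 in *ice1-2* A, B and C, against 7.32, 5.09 and 5.68 in the Col-0 libraries A, B and C, without overlap. *TSO2* was the largest part of the DNA replication sum, at a mean of 42.5 FPKM in *ice1-2* and 37.2 FPKM in Col-0. Its groups overlapped (log2 fold change 0.19).

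The mitosis list gave no call by limma either, in 16 of 18 genes measured, with a median log2 fold change of 0.25 and 3 genes higher at an unadjusted p under 0.05, against 16.2% of all genes. The lowest p were those of *KNOLLE*, the syntaxin of the cell plate (log2 fold change 1.04, adjusted p = 0.0811 from limma), *HINKEL*, a kinesin of the phragmoplast (0.79, adjusted p = 0.167 from limma), and the cyclin gene *CYCB1;4* (0.68, adjusted p = 0.201 from limma). Of 18 histone chaperones and remodelers, none was called by limma, and at an unadjusted p under 0.05 1 was higher and 1 lower, against 16.2% and 5.26% of all genes. These were the histone chaperone gene *NRP1* (log2 fold change 0.52, adjusted p = 0.163 from limma) and *ATRX*, a remodeler that takes part in H3.3 deposition (log2 fold change -0.42, adjusted p = 0.175 from limma). The next, *NAP1;3*, an H2A-H2B chaperone, had 0.38 (adjusted p = 0.271 from limma). *FAS1* and *FAS2*, the large subunits of CAF-1, had log2 fold changes of 0.03 each.

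Markers of other cells also differed between the libraries. Nuclear photosynthesis genes, 9 in all, summed to 2581 to 4262 FPKM in *ice1-2* and 1515 to 1826 FPKM in Col-0, and 4 were called higher, against 1.54% of all genes. The 8 markers of the vegetative pollen cell summed to 4649 to 7060 FPKM in *ice1-2* and 7815 to 9487 FPKM in Col-0. The 11 tapetum markers summed to 193 to 371 FPKM in *ice1-2* and 69.4 to 692 FPKM in Col-0, highest in *ice1-2* B and Col-0 A. Listed at 0 were 2, 1 and 1 of them in *ice1-2* A, B and C, 3 in Col-0 C and none in Col-0 A or B. The 8 meiocyte markers summed to 10.95 to 13.9 FPKM in *ice1-2* and 10.2 to 12.03 FPKM in Col-0. The part of these cell types in the histone levels was not tested. With *ice1-2* B and Col-0 A left out together, a choice made after seeing the data, 728 genes were called in all. Of the histone genes, 6 were then called higher and 1, *HTR14*, lower, and the median log2 fold change of the replication-dependent genes was 0.92.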

How the data were processed

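Anther RNA was sequenced in 6 libraries. The deposited FPKM values were made by the authors, who used Trim Galore to clean the reads, TopHat2 to place them on TAIR10, StringTie and CuffMerge for assembly, and HTSEQ for counting. The labels name single-end and paired-end reads, the paper paired-end reads of 100 bp. Whether counting used strand, and how reads that match several genes were treated, is not given in the sources. No read counts were analysed here, and depth was estimated from the spacing of low FPKM values on genes with 1 transcript, at about 5.9 to 26.9 megafragments per library.

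FPKM were fitted as log2(FPKM + 0.5) with limma 3.58.1 (lmFit, eBayes with trend) in R 4.3.3, genotype being the only term, over the 18858 genes that reached 1 FPKM in 3 or more libraries, and p were adjusted by the Benjamini-Hochberg method. The procedure was tested on simulated data. The planted changes were larger than those of the called histone genes, so that test does not bear on calls of their size. Class sums, ratios and motif searches used Python 3.11.15. Sequences and gene models came from RefSeq on TAIR10.1, and the first transcript of each gene was used.

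The histone genes and all gene lists were chosen with earlier results of these data known. Named were, per class, the gene with the highest mean FPKM, the gene with the largest change, every gene called and every gene under the filter; from each list of partner genes, up to 3. Further genes were named after their values were seen. Of 106 list genes, 3 whose identifier carried another name, or none, in the reference were dropped.

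Alternatives were other pseudocounts (0.1 and 1), no filter, a filter at an FPKM of 5, a replicate block on the library letter, median-ratio scaling, the nuclear ribosomal RNA genes left out, library quality weights, no limit on the fold, each library left out, and, added later, *ice1-2* B and Col-0 A left out together.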

Additional observations from a re-analysis of the deposited data

How the results depend on the processing

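Of the 18858 genes tested, 335 were called, and 7 histone genes were called higher and 0 lower. The replicate block left 35 calls over all genes and 0 histone genes higher. Whether the letters A, B and C mark a pairing is not stated. Deviations of same-letter libraries correlated at -0.21, 0.05 and 0.12, and those of different letters at -0.29 to 0.22. With so few libraries these correlations cannot decide it. Without the filter 28 genes were called and 0 histone genes. Median-ratio scaling gave 162 calls and 2 histone genes higher. With ribosomal RNA genes left out 493 genes were called, and 12 histone genes were called higher. Library quality weights gave 803 calls, with 16 histone genes higher and 1 lower. Leaving out *ice1-2* B and Col-0 A together gave 728 calls, with 1 histone gene lower. Leaving out any library gave 15 to 628 calls, and 0 to 11 histone genes higher.

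The median log2 fold change of the replication-dependent genes ranged from 0.78 to 1.08 and that of the other histone genes from 0.21 to 0.47 over all alternatives run. Among the named genes, the log2 fold change of *HTA9* turned from -0.01 to 0.022 with ribosomal RNA left out and ranged from -0.097 to 0.148 when any library was left out, and that of *HTA7* ranged from -0.068 (without Col-0 B) to 0.534 (without Col-0 A). The cause was not tested. Depth limits the genes of low level, such as *HTR14*, and *ice1-2* A was the shallowest library.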
